A study of Apis mellifera with 12 samples.

Results

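miR-124, miR-137 and miR-1000 are microRNAs (miRNAs) tied to nerve cells. They were chosen by name, and the rows ame-miR-124, ame-miR-137 and ame-miR-1000 account for 3 of the 168 honey bee miRNA probes on the arrays. All 3 were found in the scanner files and in the authors' processed table, and all 3 passed the filter on dim probes, as did 84 of the 168. The series asked whether lowering vitellogenin, a yolk precursor protein that also slows the shift of worker bees from nursing to foraging, alters brain miRNAs.

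The bees were Apis mellifera workers injected in the abdomen soon after emergence with 2 µL of double-stranded RNA at 10 µg/µL. The control group received dsRNA-GFP (dsGFP, against green fluorescent protein, which bees lack) and the knockdown group received dsRNA-Vg (dsVg, against vitellogenin). Brains came from workers aged 15 days, and the source names call both groups forager brain. Each group had 6 pools, each pool combined 200 ng of small RNA from each of 5 bees into 1 µg, and each pool was read on 1 array with 18 spots per miRNA. Every bee had been injected with dsRNA, so there was no uninjected group. These miRNA arrays carry no measure of vitellogenin mRNA, so how far it fell was not analysed here. The labels do not say whether pools came from separate colonies. In whole brains, fewer cells of a type and less miRNA per cell cannot be told apart.

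A mature miRNA guides an Argonaute protein to messenger RNAs that pair with its seed, bases 2 to 8 from the 5′ end, and lowers their translation or stability. miR-124 is conserved from flies to mammals and is enriched in neurons, where in mammals it holds down messages of other cell types. In mammals miR-137 acts on neural stem cells, dendrites and synapses. miR-1000 is an insect miRNA that in Drosophila limits the vesicular glutamate transporter and protects neurons from glutamate damage.

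The target sequences in the scanner files are shown because the seed decides which messages each miRNA can pair with. Capitals mark the seed.
miR-124: uAAGGCACgcggugaaugccaag
miR-137: uUAUUGCUugagaauacacgua
miR-1000: aUAUUGUCuugucacagcagu

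The seeds of miR-137 and miR-1000 have the same base at 5 of 7 positions, the first 5 in a row, whereas that of miR-124 matches miR-137 at 1 position and miR-1000 at 2. None of the 3 seeds occurs in any other miRNA on the array, and none shares bases 2 to 7 with another. Each mature sequence is at least 9 edits (substitutions, insertions or deletions) from that of every other probe, and miR-137 and miR-1000 are 9 edits apart. Base composition separates them: 56.5% of the bases of miR-124 are G or C, against 31.8% in miR-137 and 38.1% in miR-1000, with a median of 45.5% over the 168 miRNAs. Their hairpin genes, Mir124, Mir137 and Mir1000 in RefSeq (assembly Amel_HAv3.1), lie on different linkage groups. No other annotated miRNA gene lies within 10 kb of any of them. Mir1000 falls inside the spans of a protein-coding gene, LOC100578236, and of a long non-coding RNA gene, LOC100577723, and no annotated gene spans Mir124 or Mir137.

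Detection was judged against the 608 empty spots of each array. A miRNA counted as detected when the mean of its 18 spots exceeded the 95th percentile of those empty spots. Arrays differed in this respect, with 34 to 168 miRNAs detected. On dsGFP pool 1 and dsVg pool 1, 165 and 168 of the 168 probes passed, so passing there says little about any single probe. On dsGFP pool 2 and dsVg pools 4, 5 and 6 the median miRNA probe lay below the median empty spot. On dsVg pool 5 these medians were 352 and 478. Empty spots are thus no floor for the probes of such arrays, and a miRNA not detected there need not be absent. More than 80 miRNAs were detected in dsVg pools 1, 2 and 3 and in dsGFP pools 1, 3 and 4, and at most 80 in the other 6. Beside the tissue label, 20 miRNAs of the insect nervous system were read. All 20 had probes, and 12 were detected on all 12 arrays, as were 33 of all 168 probes. Among those 12, miR-276 and miR-2796 had mean log2 signals of 13.63 and 13.46 in the controls, an example chosen after their values were seen. Of the other lists described below, 3 of 3 eye, 3 of 3 gland, 1 of 2 muscle and 1 of 6 gut probes were also detected on all 12 arrays. No other tissue was measured, so this does not show that the tissue is brain.

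miR-124 was detected on all 12 arrays, and on each of them all 18 of its spots lay above the 95th percentile of the empty spots. Its raw intensity ran from 560 to 1755 in dsGFP pools (median 758) and from 923.8 to 3074 in dsVg pools (median 1239). In multiples of the array's median empty spot this was 2.03 to 21.7 in controls and 3.04 to 15.5 after knockdown, so the groups overlapped on both scales.

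miR-137 was detected on 11 of 12 arrays. These include dsVg pool 1, where all 168 probes passed, and there it read 358, below that array's median miRNA probe of 362. It ranked 107th of 168 there, at 1.18 times the median empty spot. On dsVg pool 5, where it was not detected, this multiple was 1.21, but that includes the single bright spot described below. The other 17 spots averaged 463 there, below the median empty spot of 478. Its raw intensity was 173 to 1012 in controls (median 375) and 193 to 2436 after knockdown (median 450). In each group pool 3 was far the brightest, at 13.5 times the median empty spot in dsGFP pool 3 and 18.9 times in dsVg pool 3. The other 10 arrays gave 1.18 to 2.48 times, close to background, with the bright spot of dsVg pool 5 included. On dsVg pool 5, where miR-137 was not detected, a single spot read 2513 while the other 17 had a median of 450 and a maximum of 547. That was the only one of its 216 spots above 2 times its array's median for this probe, and on the other 11 arrays the spot at that place never exceeded 2 times the array's mean for this probe. Without it the log2 signal of miR-137 in dsVg pool 5 was 7.88, against 8.27 with it.

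miR-1000 was also detected on 11 of 12 arrays, at raw intensities of 255 to 1305 in controls (median 490) and 286 to 1276 after knockdown (median 429). The exception was again dsVg pool 5, where its mean of 447 lay below the median empty spot of 478 and none of the 18 spots passed the 95th percentile. dsVg pool 5 thus had the highest miR-124 intensity of all 12 arrays and no signal of miR-1000 above its empty spots. The median miRNA probe of that array read 352, however, and miR-1000 ranked 44th there, against 31st to 46th on control arrays. This array also had the brightest empty spots and the fewest detected miRNAs, 34, and only its intensities were all whole numbers. The part of these array properties in the result was not tested.

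**Figure D1:**
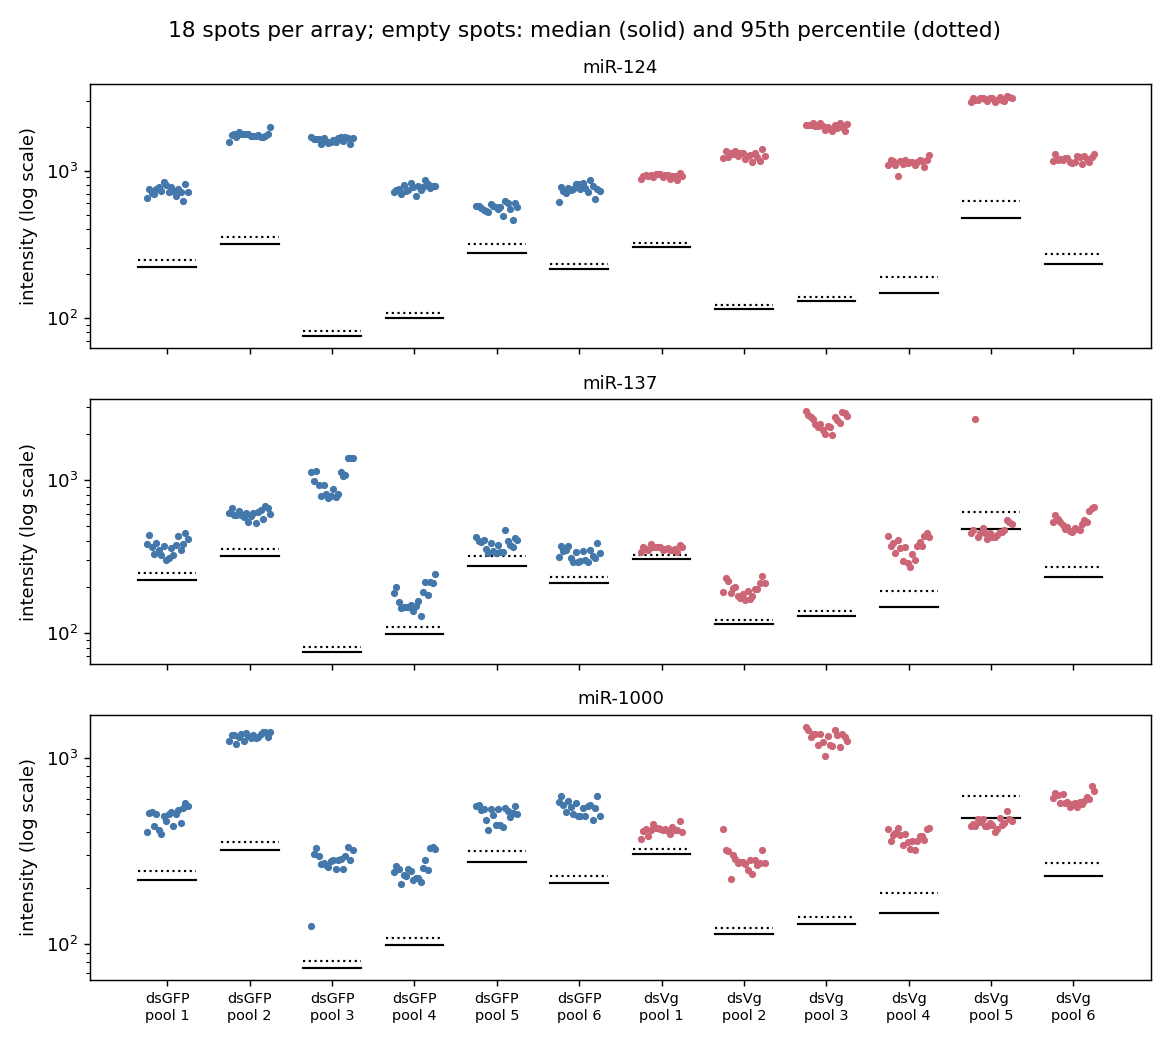
Raw intensity (log axis) of the 18 spots of miR-124, miR-137 and miR-1000 on each of the 12 arrays, with the median (solid line) and 95th percentile (dotted line) of the 608 empty spots of that array. miR-124 clears the empty spots everywhere, miR-137 stands far above them in pool 3 of each group, and a single miR-137 spot at 2513 stands apart in dsVg pool 5.

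Spots of 1 array agreed better than pools did, apart from the single miR-137 spot. The coefficient of variation over the 18 spots of miR-124 was 2.92% to 8.10% per array, that of miR-1000 3.94% to 16.1%, and that of miR-137 3.15% to 84.1%, the last on dsVg pool 5. On the log2 scale the median standard error of the 18-spot mean of miR-124 was 0.018, against an SD between pools within a group of 0.77. For miR-137 these values were 0.054 and 0.77, and for miR-1000 0.039 and 0.47. The difference of miR-124 before normalization was also alike in the 3 column positions of its spots, at 0.78, 0.70 and 0.75. Spot noise was therefore small beside the spread between pools.

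For the comparison of groups, intensities were background-corrected, averaged per probe on the log2 scale and quantile-normalized, so that a probe's value depends on its rank within the array. miR-124 ran from 9.08 to 10.00 in controls (median 9.74) and from 9.34 to 11.99 after knockdown (median 10.26). dsVg pools 5 (11.99), 1 (11.34) and 2 (10.51) lay above every control, dsVg pool 4 equalled the highest control, dsGFP pool 4, and dsVg pools 3 and 6 lay inside the control range. This order depends on the normalization. Before it, dsVg pool 1 was the lowest knockdown pool (9.46), below dsGFP pools 2, 3 and 4 (10.62, 10.65 and 9.52). dsVg pool 3 (10.93) then lay above every control, and dsVg pool 2 (10.26) did not. In rank order miR-124 was the 24th to 32nd brightest miRNA on control arrays. It was the 13th on dsVg pool 5, the 15th on dsVg pool 1, the 20th on dsVg pool 2 and the 24th to 30th on the other 3. The arrays of dsVg pools 1 and 5, the pair with the highest normalized miR-124, had the most and the fewest detected miRNAs of the 12 (168 and 34).

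Control pools averaged 9.60 ± 0.33 (SD, n = 6) for miR-124, and knockdown pools averaged 10.46 ± 1.04 (SD, n = 6). The difference was 0.85 (SE 0.41), which is 1.81-fold, with a 95% interval of -0.04 to 1.75, and 4 of the 6 dsVg pools exceeded the mean of the controls. It did not pass adjustment over the 84 tested miRNAs (limma p = 0.0594, adjusted p = 0.666; two-sided exact permutation p = 0.0909). The difference was smaller than the SD among the knockdown pools. Without dsVg pool 5 the difference was 0.55, and without dsVg pools 1 and 5 it was 0.25. Among the 84 miRNAs it ranked 3rd by size of difference and 6th by p-value.

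miR-137 ran from 7.81 to 9.08 in controls (median 8.002) and from 6.58 to 9.58 after knockdown (median 8.22). The highest control was dsGFP pool 3, and the highest and lowest knockdown pools were dsVg pools 3 and 1. On the array of dsVg pool 1 all 168 probes passed the detection cut and miR-137 ranked 107th, so its value there is uncertain. Of the dsVg pools 1 exceeded all controls, 2 fell below all controls and 3 lay among them, including dsVg pool 5, where it was not detected. The means were 8.18 ± 0.46 (SD, n = 6 pools) and 8.11 ± 0.98 (SD, n = 6 pools), a difference of -0.07 (SE 0.41) with a 95% interval of -0.96 to 0.82. It did not pass adjustment (limma adjusted p = 0.935; exact permutation p = 0.907), and the interval excludes neither a fall to 0.513 times nor a rise to 1.76 times the control signal. The sign was positive without dsVg pool 1 (0.24), dsGFP pool 3 (0.11) or dsVg pool 2 (0.0096), and under each of the other between-array settings but 1, listed with the dependence on processing.

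miR-1000 ran from 7.64 to 9.20 in controls (median 8.95) and from 7.81 to 8.71 after knockdown (median 8.54). All 6 knockdown pools lay inside the control range, and 5 of them were below the control mean. The lowest control was dsGFP pool 3, the same pool that had the highest control value of miR-137. The means were 8.68 ± 0.57 (SD, n = 6 pools) and 8.42 ± 0.33 (SD, n = 6 pools), a difference of -0.26 (SE 0.25) with a 95% interval of -0.82 to 0.29. It did not pass adjustment (limma adjusted p = 0.772; exact permutation p = 0.335). Without dsGFP pool 3 the difference was -0.45, and it was -0.14 without dsGFP pool 2 and likewise without dsVg pool 5. Within the 6 arrays with over 80 detected miRNAs it was 0.21, and within the other 6, which include dsVg pool 5, it was -0.78. On dsVg pool 5, where miR-1000 was not detected, the value of 7.81 is uncertain.

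**Figure D2:**
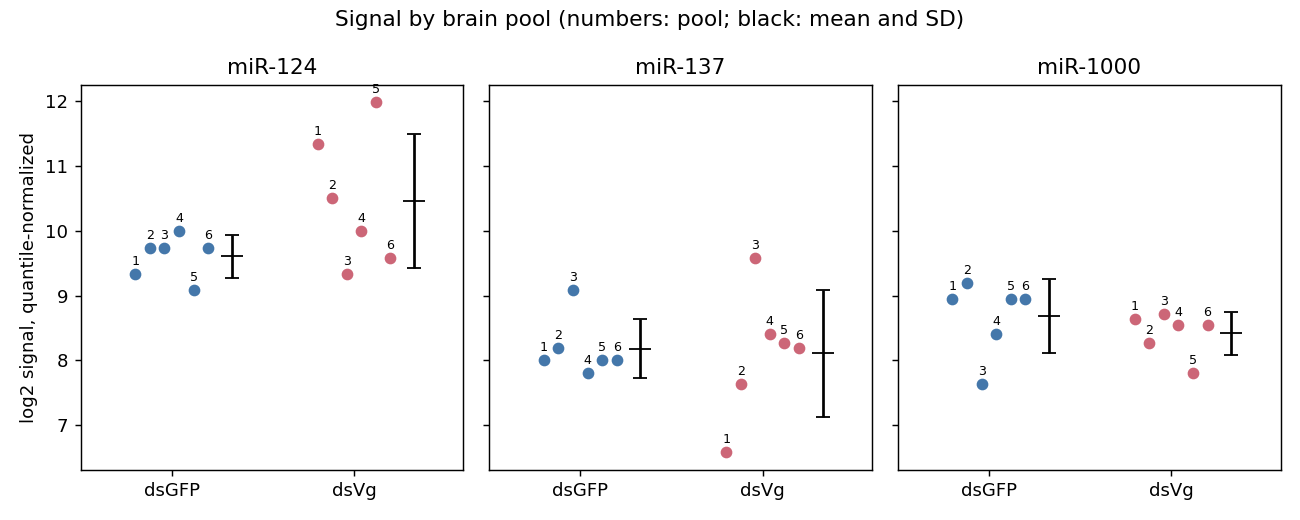
Quantile-normalized log2 signal of the 3 miRNAs in each pool (number beside the point), with the group mean and SD (n = 6 pools) in black. dsVg pools 5, 1 and 2 exceed all controls for miR-124, the miR-137 values of pool 3 are the highest of both groups, and all dsVg pools lie within the control range for miR-1000.

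None of the 3 miRNAs passed the adjusted threshold of 0.05, against 0% of the 84 tested miRNAs (0 called by limma, and 0 by the exact permutation test after adjustment). At an unadjusted p under 0.05 the count was 3 of 84 with limma (3.57%) and also 3 of 84 with the exact test, namely miR-375, miR-1 and miR-275, named here after their values were seen. The median difference over all 84 was 0.03, with 53.6% higher and 46.4% lower after knockdown.

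In the quantile-normalized values the spread among pools was wider after knockdown for miR-124 and miR-137 and narrower for miR-1000. The SD of miR-124 was the 5th largest of 84 among dsVg pools and the 26th largest among dsGFP pools. For miR-137 these places were 7th and 12th. Those of miR-1000 were 47th and 5th. For miR-124 the SD after knockdown was at least 3 times that of controls, as it was for 14.3% of the 84. A wider spread after knockdown was common, seen in 66.7% of the tested miRNAs, with median SDs of 0.37 after knockdown and 0.23 in controls. Before normalization between arrays, of the 3 only miR-137 kept this order, with SDs of 1.49 after knockdown and 1.02 in controls. Those of miR-124 were then 0.71 after knockdown and 0.83 in controls, and those of miR-1000 0.98 and 0.83. All these SDs are a description and were not tested.

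The authors' deposited table, made by a normalization that no header or label used here describes, listed miR-124 at 300 to 742 in controls (median 513) and 386 to 1977 after knockdown (median 788.5). As after quantile normalization, pools 5, 1 and 2 of the dsVg group stood highest there, at 1977, 1391 and 939. miR-137 was at 114 to 447 in controls and 37 to 547 after knockdown, with dsGFP pool 3 and dsVg pool 3 highest and dsVg pool 1 lowest. miR-1000 was at 125 to 387 and 104 to 252. On the log2(value + 1) scale the differences in that table were 0.72 for miR-124, -0.11 for miR-137 and -0.31 for miR-1000, with limma adjusted p-values of 0.531, 0.942 and 0.669.

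The log2 ratio of a pair of probes on 1 array was taken before normalization between arrays, so it does not depend on that step. It does depend on the background correction, which adds a constant of 50 to each intensity. For miR-124 to miR-1000 the difference between groups was 2.15 with plain background subtraction and 0.59 with no correction, against 0.81 as reported. Plain subtraction set any spot below its array's median empty spot to 1. Most miR-1000 spots of dsVg pool 5 (mean 447 against 478) were set so, and the 2.15 includes them. Only the change of each ratio between groups was compared, since probes differ in how well they bind. On dsVg pool 5 neither miR-137 nor miR-1000 was detected above the empty spots, so ratios to either are uncertain there. Each difference as reported is given with and without that pool, but those under other background corrections were not run without it. The ratio of miR-124 to miR-1000 was 0.25 to 2.64 in controls and 0.68 to 2.37 in the other 5 knockdown pools, all of which lay inside the control range. With the value computed for dsVg pool 5, 3.56, the means were 1.08 ± 0.91 (SD, n = 6 pools) and 1.89 ± 1.01 (SD, n = 6 pools), a difference of 0.81 (SE 0.55; two-sided exact permutation p = 0.175, adjusted p = 0.515 over the 3 pairs). Without that pool the difference was 0.47 (exact permutation adjusted p = 0.790).

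For miR-124 to miR-137 the ratio was 0.72 to 2.39 in controls and -0.28 to 3.06 in the knockdown pools other than dsVg pool 5. Of these, dsVg pool 2 exceeded all controls and dsVg pool 3 lay below all of them. With the value computed for dsVg pool 5, 3.30, which includes the single bright miR-137 spot, the difference was 0.43 (SE 0.59; exact permutation p = 0.487, adjusted p = 0.515). Without that pool it was 0.15 (exact permutation adjusted p = 0.790). The ratio of dsVg pool 1, 2.35, is uncertain as well, since miR-137 lay near the empty spots there. Without dsVg pool 1 alone the difference was 0.35 (exact permutation adjusted p = 0.617). For miR-137 to miR-1000 the ratio was -1.41 to 1.91 in controls and -0.69 to 0.96 after knockdown, a difference of 0.38 (SE 0.54; exact permutation p = 0.515, adjusted p = 0.515), and 0.32 without dsVg pool 5. Here 5 of the 6 control pools lay between -1.41 and -0.58 and dsGFP pool 3 at 1.91. Without dsGFP pool 3 the difference was 0.84 (exact permutation adjusted p = 0.0584). No ratio passed the threshold. The difference for miR-124 to miR-1000 was -0.075 within the 6 arrays with over 80 detected miRNAs and 1.69 within the other 6, which include dsVg pool 5. With 3 pools against 3, the smallest p that an exact test allows is 0.1.

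**Figure D3:**
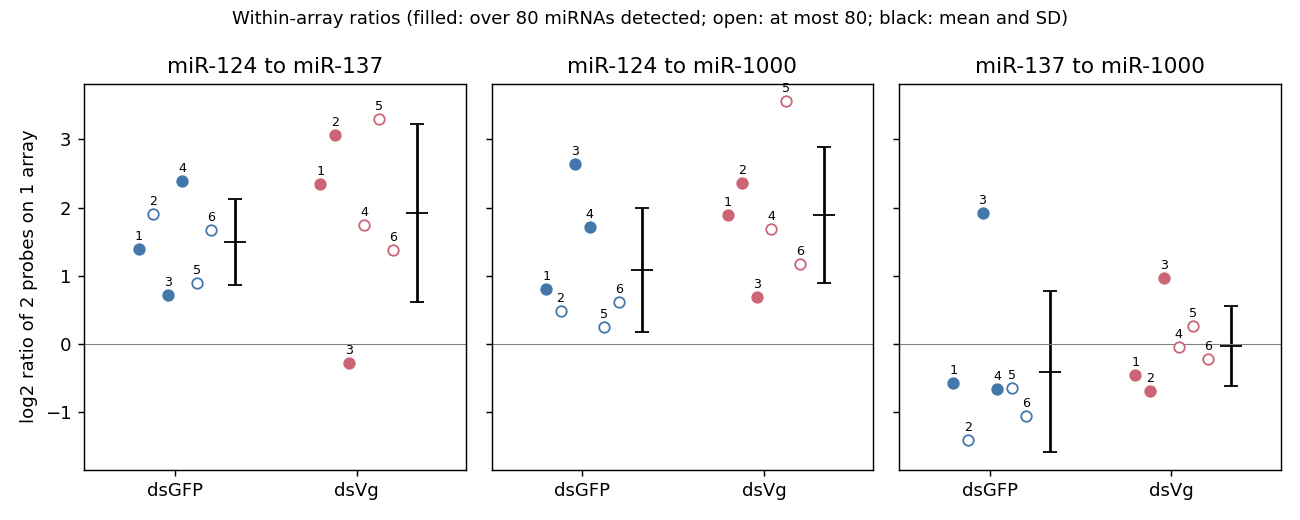
Log2 ratio of each pair of probes within an array, by group, with pool numbers, filled points for arrays with over 80 detected miRNAs, open points for the others, and the mean and SD (n = 6 pools) in black. dsGFP pool 3 stands apart from the other controls for miR-137 to miR-1000, at 1.91. The points of dsVg pool 5 are uncertain, since miR-137 and miR-1000 were not detected on that array.

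Over the 12 pools every pair of the 3 miRNAs had a negative correlation coefficient, and no pair passed adjustment. For miR-124 and miR-1000 Pearson's r was -0.51 (permutation p = 0.0824, adjusted p = 0.237 over the 3 pairs) and Spearman's rho was -0.57 (permutation p = 0.0549, adjusted p = 0.165). For miR-124 and miR-137 r was -0.45 (permutation p = 0.158, adjusted p = 0.237) and rho -0.28 (permutation p = 0.378, adjusted p = 0.568). For miR-137 and miR-1000 r was -0.22 (permutation p = 0.496, the same after adjustment) and rho -0.15 (permutation p = 0.643, the same after adjustment). Leaving out the pair of pools farthest from the median of the first-named miRNA gave r of -0.44, -0.36 and -0.49 in the same order. Within the arrays with over 80 detected miRNAs r was -0.066, -0.83 and -0.27, and within the others -0.85, 0.49 and -0.53, so the size differed with the kind of array and for miR-124 and miR-137 the sign did too. Within the control pools alone r was -0.37, 0.12 and -0.75, and within the knockdown pools -0.71, -0.59 and 0.062. The sign thus differed between treatments for both pairs with miR-137. The coefficients over 12 pools include dsVg pool 5, where miR-137 and miR-1000 were not detected.

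The miRNAs whose pattern was most like each of the 3 were the 4 with the highest r among the other 81 tested. They were chosen for that r, so it is a description. For miR-124 they were miR-275 (r = 0.94), which acts in the mosquito gut after a blood meal, miR-279c (0.94), miR-210 (0.93), a hypoxia miRNA in mammals, and miR-31a (0.92). Without dsVg pools 5 and 1 these values were 0.88, 0.59, 0.80 and 0.76, and after removal of each group's mean from the 12 pools they were 0.92, 0.93, 0.95 and 0.90. All 4 had their highest signals in dsVg pools 5 and 1, with miR-275 at 11.68 and 10.75 against 10.51 in the highest control. All but miR-279c, detected on 11, were detected on all 12 arrays. All 4 are rich in G and C (50% to 60.9%), as is miR-124.

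For miR-137 the most similar patterns were those of miR-3718a (0.92), miR-3776 (0.81), miR-3741 (0.80) and miR-3796 (0.78). The last 3 were detected on 6 arrays, the fewest that the filter allowed. Unlike miR-137, all 4 are rich in G and C (50% to 68.2%). For miR-1000 they were miR-12 (0.87), miR-305 (0.84), a regulator of gut stem cells in flies, miR-375 (0.75), an endocrine-cell miRNA in vertebrates, and miR-13b (0.68), a relative of miR-2. Their lowest signals fell in dsVg pool 5 for all 4, where miR-13b was at 10.51 against 11.99 to 12.86 elsewhere and miR-1000 itself was not detected. Without dsGFP pool 3 and dsVg pool 5 these r values were 0.89, 0.70, 0.67 and 0.73. Over the 81 miRNAs r ranged from -0.90 to 0.94 with miR-124, from -0.79 to 0.92 with miR-137 and from -0.86 to 0.87 with miR-1000, with medians near 0 (0.03, 0.06 and -0.17). All these points share the same 12 arrays and their normalization.

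Other miRNAs of the nervous system were examined as a list of 20, of which 17 were tested (miR-9b, miR-219 and miR-315 were too dim). Knockdown pools had the higher mean for 9 of the 17 and the lower for 8, and the median difference was 0.05 beside 0.03 over all 84. Of the 17, 0 passed the adjusted threshold with limma or with the exact permutation test (0% of 84), nor did any have an unadjusted p under 0.05. The smallest p-values in the list, apart from the 3 miRNAs described above, were those of miR-133 at 0.57 (SE 0.27), a muscle miRNA that in locusts also limits dopamine synthesis, miR-279 at -0.39 (SE 0.35), which in flies shapes olfactory neurons, miR-125 at 0.24 (SE 0.21), a partner of let-7, and miR-210 at 0.32 (SE 0.30). Their limma adjusted p-values were 0.666 to 0.772. Other lists also hold miR-133 (muscle), miR-7 (eye) and miR-8 (glands). The differences in this list ran from -0.42, for miR-7, to 0.85, for miR-124.

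**Figure D4:**
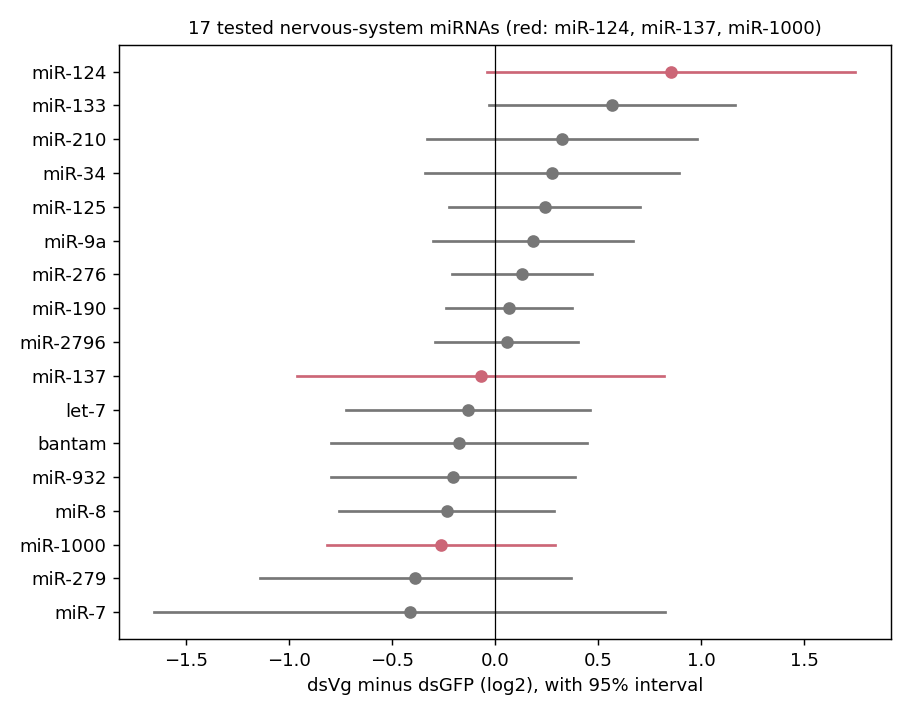
Difference between dsVg and dsGFP pools (log2) with its 95% interval for the 17 tested nervous-system miRNAs, with miR-124, miR-137 and miR-1000 in red. All 17 intervals include 0, and miR-124 lies farthest to the right at 0.85.

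Markers of tissues that could come along with a dissected brain were read beside these results. The summed normalized signal (linear scale) of the 6 gut and fat body miRNAs was 1586 to 2176 in controls and 1623 to 4052 after knockdown. It was highest in dsVg pools 5 (4052), 1 (2674) and 2 (2364), the same 3 that stood highest for normalized miR-124. Most of that sum was miR-275, at 57.7% in controls and 66.3% after knockdown. miR-275 was named above as the miRNA most like miR-124 (r = 0.94), so this match is not separate from that likeness. In dsVg pool 5 miR-305 and miR-375 were at their lowest of the 12 arrays, at 6.65 and 6.66. Only miR-275 of the 6 was detected on all 12 arrays, while miR-281 and miR-750 were detected on 6 each. Of those 6, 4 were higher and 2 lower, with miR-375 at -0.38, miR-275 at 0.61, miR-989 at 0.48 and miR-305 at -0.29. The array of dsVg pool 5 also had the highest sum of the 12 for the nervous-system list (63450.5, others 46108.5 to 59401.4) and for the gland and epithelium list (22272, others 11364 to 18834). For the eye and sensory organ list it had the lowest (4421, others 5933 to 13948). The part of these markers in the miR-124 values was not tested.

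Of 3 names in the muscle list 2 had probes, and miR-206 had none. Their summed signal overlapped between the groups (574 to 1310 in controls, 517 to 1231 after knockdown). The difference of miR-1 was -0.90, that of miR-133 being given above. Of 4 names in the eye and sensory organ list 3 had probes, and miR-183 had none. Of those with probes 2 were higher and 1 lower (miR-263b at 0.32, miR-263 at 0.18, miR-7 at -0.42). Of 3 gland and epithelium miRNAs 2 were higher and 1 lower (miR-31a at 0.62, miR-8 at -0.24, miR-317 at 0.06). None of these passed the adjusted threshold.

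The direction of the miR-124 difference did not turn under any of the 34 alternative settings run, with values of 0.25 to 1.08. Some of these could not turn it, since other filters, blocks and tests leave the difference itself at 0.85. None of the 34 brought it past the threshold (lowest limma adjusted p = 0.169, without dsVg pool 3). The differences of miR-137 and miR-1000 ran from -0.60 to 0.31 and from -0.78 to 0.21.

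**Figure D5:**
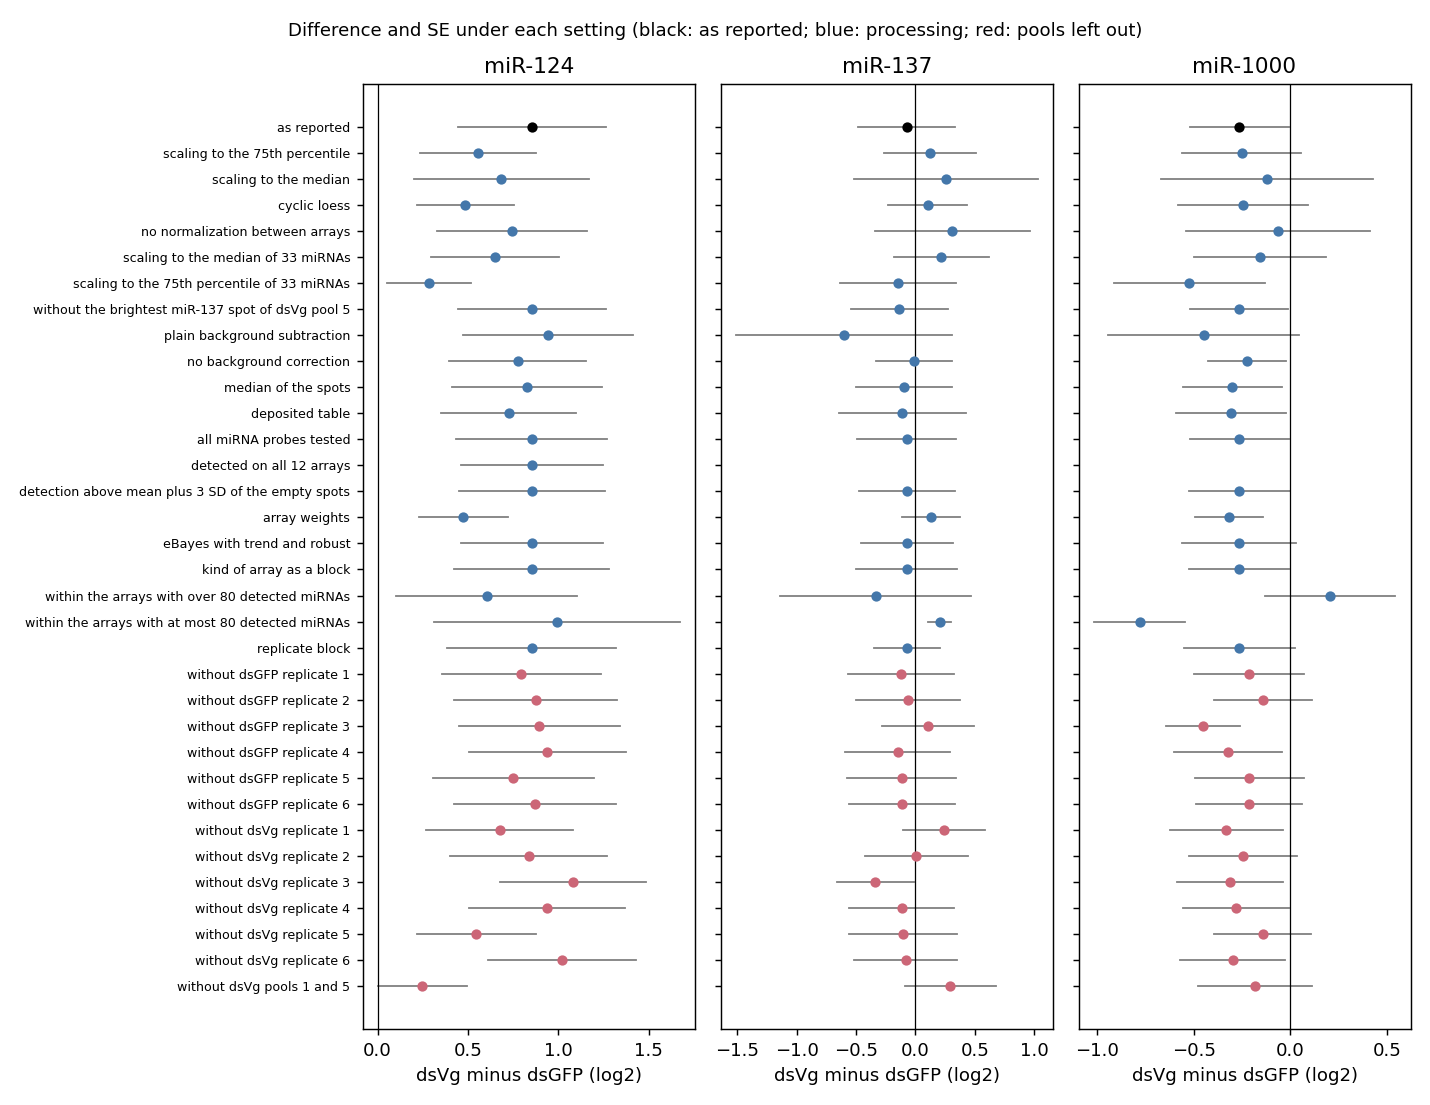
Difference between dsVg and dsGFP pools (log2) with its SE under each setting, as reported in black, other processing in blue and pools left out in red. All points of miR-124 lie above 0, from 0.25 to 1.08, while those of miR-137 fall on both sides of 0 and those of miR-1000 lie below it but for 1, at 0.21.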

How the data were processed

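Small RNA from 12 brain pools was hybridised to 12 arrays. Tailing, tagging and Cy3 staining were done commercially, per the labels' protocols, in 1 colour. The scanner files hold linear intensity per spot, per the file headers, with background still included as the empty spots show. The authors' deposited table also holds intensity, as whole numbers. How it was normalized was not stated in any header or label used here.

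Intensities were corrected with normexp (offset 50) in limma 3.58.1 under R 4.3.3, log2 values of the 18 spots were averaged, and the 168 probes were quantile-normalized. The 84 miRNAs detected on at least 6 arrays were tested with limma (lmFit, eBayes, two-sided, Benjamini-Hochberg over 84), beside exact permutation over 924 assignments (smallest possible p 0.00216). Ratios used values before normalization between arrays. Member correlations used 100000 permutations. The code was tested on simulated data. Depth does not apply to arrays, whose number limits precision. The p-values of group differences set each difference against the spread between pools and do not test that spread.

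The miRNAs, the lists and the settings were chosen with earlier results of these data known. Named besides the 3 were the 4 most similar miRNAs to each and, per list, the 4 with the smallest p; miR-276, miR-2796 and, as the lowest of the nervous-system list, miR-7 were named after their values were seen. Alternatives covered normalization, background, spot summary, filters, weights, blocks and pools left out.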

Additional observations from a re-analysis of the deposited data

Results flagged for a closer look

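Among 12 groups of values checked for a single pool far from the rest (3 signals and 3 ratios in each treatment), dsGFP pool 3 stood apart in 2. For miR-137 its log2 signal was 9.08 against 7.81 to 8.18 in the other controls, a gap of 0.706 of the group's range (above Dixon's 95% critical value). For the ratio of miR-137 to miR-1000 it was at 1.91 against at most -0.58, a gap of 0.749 of the range, also above that value. Both share that pool's miR-137 value, and chance flags about 1 in 20 such groups.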

How the results depend on the processing

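miR-124 kept its sign throughout, with 0.55 to 1.08 when single pools were left out, 0.25 without dsVg pools 1 and 5, 0.55 under 75th percentile scaling, and 0.28 when that percentile came from the 33 miRNAs detected everywhere, a setting chosen after seeing the data. miR-137 turned positive under scaling to the 75th percentile (0.12), the median (0.25) or the median of those 33 (0.22, also chosen after seeing the data), cyclic loess (0.11), no normalization (0.31), array weights (0.13), within the arrays with at most 80 detected miRNAs (0.20) and without dsVg pools 1 and 5 (0.29); single pools left out gave -0.34 to 0.24, positive without dsGFP pool 3 (0.11), dsVg pool 1 (0.24) or dsVg pool 2 (0.0096). Dropping its brightest spot on dsVg pool 5, also decided after seeing the data, gave -0.13. miR-1000 ran from -0.45 to -0.14 with single pools left out and turned positive within the arrays with over 80 detected miRNAs (0.21). In those arrays the ratios of miR-124 and of miR-137 to miR-1000 turned negative (-0.075 and -0.28), and that of miR-124 to miR-137 did so without dsVg pools 1 and 5 (-0.019). Leaving out single pools gave 0.15 to 0.87 for miR-124 to miR-137, 0.47 to 1.12 for miR-124 to miR-1000 and 0.17 to 0.84 for miR-137 to miR-1000. With plain background subtraction these ratios changed by 1.45, 2.15 and 0.70, and in the deposited table by 0.83, 1.03 and 0.20, in the same order, against 0.43, 0.81 and 0.38 as reported. The values from plain subtraction include dsVg pool 5, where most miR-137 and miR-1000 spots were set to its floor of 1. The causes were not tested. The count of miRNAs past the threshold stayed 0 (nervous-system list too) except with array weights, where 1 passed, miR-375, and it was 0 with each single pool left out. Requiring detection on all 12 arrays left miR-137 and miR-1000 untested. With the pool number as a replicate block the differences stayed 0.85, -0.07 and -0.26 (limma adjusted p = 0.753, 0.904 and 0.762) and the ratios 0.43, 0.81 and 0.38 (exact sign permutation adjusted p = 0.469 each), and the count stayed 0. Pool numbers shared no deviations in general (r of -0.27 to 0.53 over the 84 miRNAs, best partner of the same number in 1 of 6), so they were not treated as pairs. For some miRNAs the block did change the fit. The SE of miR-137, highest in pool 3 of both groups, was 0.28 with it and 0.41 without. The smallest limma adjusted p over the tested miRNAs was 0.0620 with it and 0.622 without. Signal over background limits miR-137, whose intensity was under 2.5 times the median empty spot on 10 arrays.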

Other observations

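Likeness to miR-124 and likeness to miR-1000 were related to base composition, in opposite directions. Across the 81 other tested miRNAs, which are not independent replicates, the correlation of a miRNA's pattern with miR-124 rose with its share of G and C (r = 0.45, rho = 0.47), whereas the correlation with miR-1000 fell with it (r = -0.51, rho = -0.56). For miR-137 the relation was weak (r = -0.19, rho = -0.16). These are descriptions over 12 shared arrays. Of the 81, 22 had r above 0.5 with miR-124 and 17 had r below -0.5.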
